A study of Homo sapiens with 11 samples.

Results

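The genes described here are 9 of the 26485 gene symbols in the count tables: the TGF-β ligands TGFB1 and TGFB2, the receptors TGFBR1 and TGFBR2, the repressors SKI and SKIL, and PMEPA1, LTBP2 and TGFBI, which stand downstream of or around the ligands. They were chosen by symbol, with earlier results of these data known, and each had a row in the table of each time point. RNA was sequenced from Caki-1-SR, a sunitinib-resistant subline of the human clear cell renal cell carcinoma line Caki-1 that was derived from a skin metastasis. The study names the sequenced cells clone 1, so they stand for a single numbered clone, and the labels give 1 µM sunitinib in the medium, so control and treated cells share that exposure. Treated cells (ODC) received ODC REMP, which combines the EGFR inhibitor erlotinib at 1 µM, the antidiabetic biguanide metformin at 1 µM, the sesquiterpene lactone parthenolide at 5 µM and the ruthenium complex Rapta-C at 2 µM. Control cells (CTRL), called untreated or sham-treated by the study, received none of these 4 drugs. There were 3 CTRL and 3 ODC libraries at 24 h, and 2 CTRL and 3 ODC libraries at 2 h, 11 in all.

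TGF-β is secreted in a latent form that is held in the matrix and has to be released. The active ligand binds TGFBR2, a serine/threonine kinase receptor that recruits and phosphorylates TGFBR1, and TGFBR1 then phosphorylates SMAD2 and SMAD3, which enter the nucleus with SMAD4. SKI and SKIL bind these SMADs and hold back transcription, and SKIL, PMEPA1 and TGFBI belong to the genes that the pathway is known to induce. In kidney epithelium the pathway is best known for matrix deposition and epithelial to mesenchymal transition.

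After 24 h of ODC REMP, TGFB2 was higher in all 3 treated libraries than in any control, by 1.83-fold, and its receptor gene TGFBR2 was lower in all 3, by 1.44-fold. PMEPA1 was 1.29-fold higher and LTBP2 1.54-fold lower, while SKI, SKIL and TGFBI lay within 1.07-fold of control. None of the 9 genes passed an adjusted p of 0.05 in edgeR's quasi-likelihood test, at either time. At that threshold the test called 24 of the 12689 genes tested at 24 h (0.189%) and 0 of 13332 at 2 h (0%). DESeq2 and edgeR's likelihood ratio test each called 2 of the 9 genes at 24 h, TGFB2 and TGFBR2, and 0 at 2 h. They called 386 and 401 of the same 12689 genes at 24 h.

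Counted at an unadjusted p under 0.05, 4 of the 9 genes passed at 24 h, with TGFB2 and PMEPA1 higher and TGFBR2 and LTBP2 lower, against 12.2% of all genes. At 2 h 2 of the 9 passed, TGFB1 and PMEPA1, both higher, against 2.34% of all genes. With a fold of at least 2 added to the unadjusted threshold, 0 of the 9 genes passed at either time, where 2.35% of all genes passed at 24 h and 0.308% at 2 h. The treated and control libraries did not overlap for 4 of the 9 genes at 24 h (17.9% of all genes) and for TGFB1 alone at 2 h (15.2% of all genes). At 24 h these were TGFB2, PMEPA1 and TGFBR1, with the treated libraries above, and TGFBR2, with the treated libraries below. The median log2 fold change of the 9 genes was 0.10 at 24 h and 0.04 at 2 h, and that of all tested genes was 0.00089 and -0.0060.

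The libraries held between 17785229 and 20882856 counted reads at 24 h and between 25782895 and 31118349 at 2 h, so that 3 counts corresponded to between 0.0964 and 0.1687 CPM (counts per 1000000 counted reads). The CPM of single genes given here are scaled by TMM, which corrects for differences in composition between libraries. The sample names carry a different month for each time point, and time and month cannot be told apart. The 6 renal epithelial markers summed to 2058 to 2262 CPM at 2 h, and at 24 h to 1634 to 2081 CPM in control and 1392 to 1855 CPM in treated libraries. At 24 h KRT8 was at 535 to 849 CPM in control and 395 to 507 CPM in treated libraries, and KRT18 at 498 to 682 and 308 to 405 CPM, both without overlap, whereas PAX8 overlapped at 444 to 664 and 554 to 888 CPM. Their part in the results of the 9 genes was not tested. CA9, a marker of clear cell carcinoma, had at most 1 count in any library. KRT19, 1 of the renal epithelial markers, had at most 3 counts apart from 48 in CTRL library 1 at 2 h. CTRL library 1 at 2 h stood apart: its 6 fibroblast markers summed to 320 CPM, against 136 in the other control library and 158 to 166 in the treated ones, with COL1A2 at 36.9 CPM and COL3A1 at 41.1 CPM against at most 0.354 and 0.193 CPM elsewhere at 2 h. Its 4 endothelial markers summed to 1.255 CPM, against at most 0.204 CPM in the others. The part of these transcripts in the 2 h results was not tested, so the 2 h log2 fold changes of the 9 genes are also given without this library. Those values compare the treated libraries with CTRL library 2 alone, a single control that has no spread of its own. In bulk libraries such as these, fewer cells of a type and less RNA per cell cannot be told apart. At 24 h, COL1A2 and COL3A1 had at most 1 count and DCN and LUM at most 2. The summed fibroblast markers, of which COL1A1 was the most abundant and PDGFRB the next, were 67.7 to 144 CPM in control and 115 to 168 CPM in treated libraries. The 3 carcinoma markers, nearly all VIM, summed to 3188 to 3596 CPM in control and 2453 to 2977 CPM in treated libraries at 24 h, and the 4 immune markers, of which CD68 was the most abundant, to 5.76 to 6.20 and 7.43 to 8.10 CPM.

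**Figure D1:**
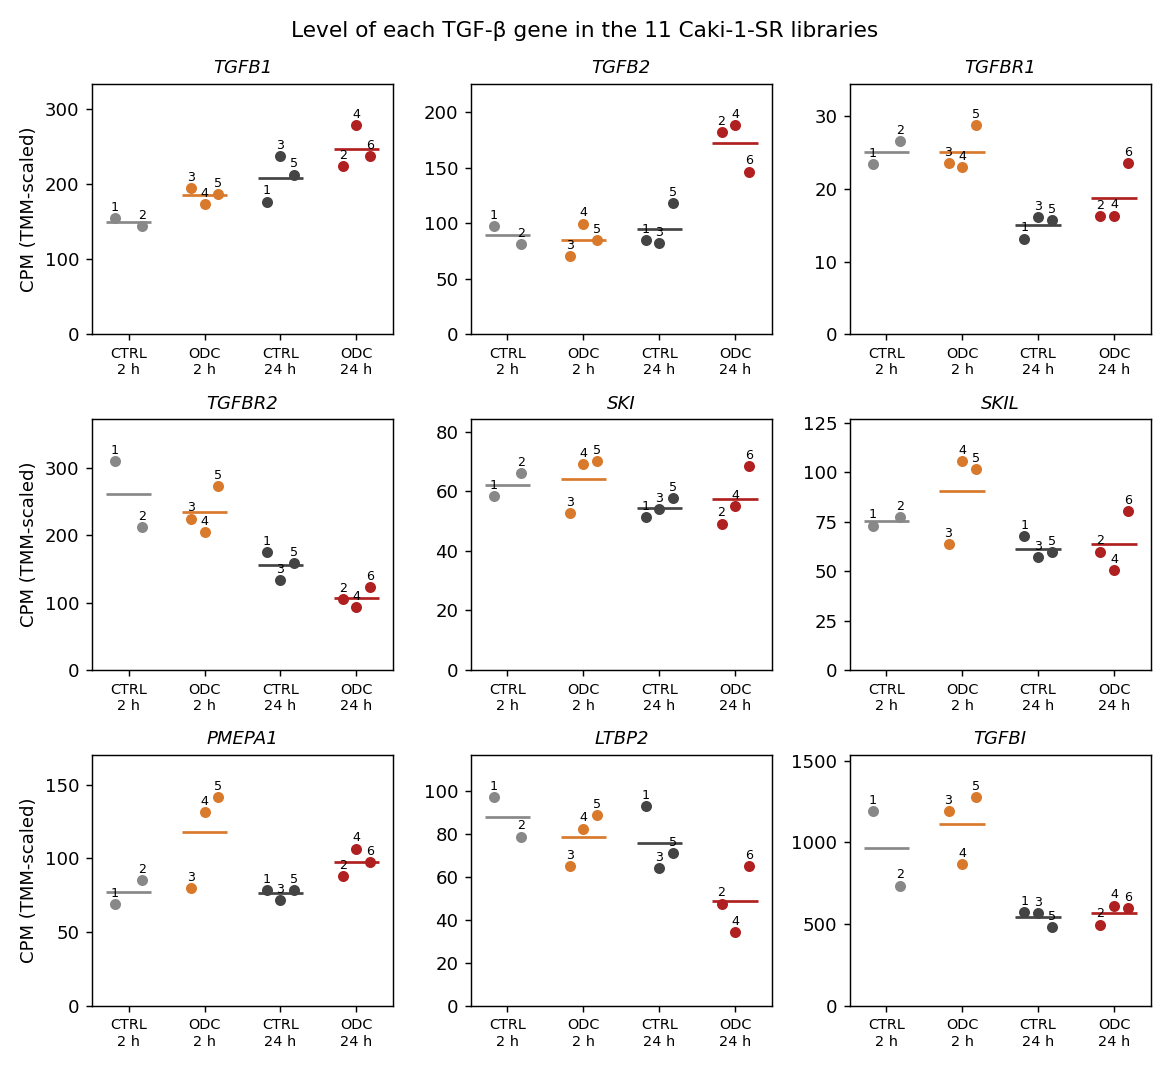
Level of each of the 9 genes in the 11 libraries, in TMM-scaled CPM on a linear axis from 0; each point is a library with its number, and the bar is the group mean. TGFB2 is between 147 and 188 CPM in the treated libraries at 24 h and at most 118 CPM in all others, and TGFBR2 is lowest in the treated libraries at 24 h.

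TGFB1 (chr19:41301587-41353922, minus strand, hg38, GENCODE 44) encodes the most widely expressed of the TGF-β ligands. At 24 h it stood at 177, 237 and 213 CPM in CTRL libraries 1, 3 and 5, and at 224, 278 and 238 CPM in ODC libraries 2, 4 and 6. The groups overlapped, since CTRL library 3 lay above ODC library 2 and within 1 CPM of ODC library 6. Its log2 fold change at 24 h was 0.26 (SE 0.14, 95% interval -0.06 to 0.57, edgeR adjusted p = 0.508). At 2 h TGFB1 stood at 155 and 144 CPM in CTRL libraries 1 and 2, and at 195, 174 and 186 CPM in ODC libraries 3, 4 and 5. Here all 3 treated libraries lay above both controls, with a log2 fold change of 0.30 (SE 0.09, 95% interval 0.09 to 0.52, unadjusted p = 0.0116, edgeR adjusted p = 1). Without CTRL library 1 the 2 h value was 0.36. The effect at 24 h minus that at 2 h was -0.07 on the log2 scale (95% interval -0.45 to 0.32, edgeR adjusted p = 0.998). Exons of TGFB1 overlap those of HNRNPUL1 on the opposite strand, a gene with up to 18021 counts in a library, and whether the counting used strand was not given in the sources used here.

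TGFB2 encodes a ligand that signals through the same receptor pair but depends more on the coreceptor TGFBR3 for binding. The gene lies at chr1:218345336-218444619 on the plus strand. At 24 h it stood at 84.8, 81.9 and 118 CPM in the CTRL libraries 1, 3 and 5, and at 182, 188 and 146.5 CPM in ODC libraries 2, 4 and 6. The lowest treated library was above the highest control, and the control group reached its 118 CPM in library 5 only. The log2 fold change of 0.87 (SE 0.17, 95% interval 0.48 to 1.27, unadjusted p = 0.00089) was the furthest from 0 among the 9 genes, but missed the threshold after adjustment over all genes (edgeR adjusted p = 0.1045). It passed the threshold in 5 of the 16 alternative analyses, with an adjusted p of 0.000312 in DESeq2, 0.00055 in edgeR's likelihood ratio test, 0.032 in a joint fit of all 11 libraries, 0.037 with libraries of adjacent number taken as pairs and 0.047 without a filter on low counts. Over the 6 analyses that left out 1 library it ranged from 0.78 to 1.06, with an adjusted p from 0.059 to 0.414.

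At 2 h the level of TGFB2 was 97.4 and 81.4 CPM in CTRL libraries 1 and 2, and 70.1, 99.6 and 84.7 CPM in ODC libraries 3, 4 and 5. The groups overlapped, with a log2 fold change of -0.08 (95% interval -0.43 to 0.28, edgeR adjusted p = 1), or 0.067 without CTRL library 1. The effect at 24 h exceeded that at 2 h by 0.93 on the log2 scale (SE 0.25, 95% interval 0.38 to 1.48, unadjusted p = 0.0031, edgeR adjusted p = 0.523). TGFB2 was the only one of the 9 genes whose difference of effects had an unadjusted p under 0.05, against 5.93% of all 13333 genes in that fit, and none of the 9 passed after adjustment, against 2 genes in all (0.015%). DESeq2 and the likelihood ratio test, which called 36 and 37 genes for this difference, likewise called none of the 9.

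The ratio of TGFB2 to TGFB1 counts within a library does not depend on how libraries are scaled to each other. It was 0.480, 0.346 and 0.557 in CTRL libraries 1, 3 and 5 at 24 h, and 0.814, 0.676 and 0.616 in ODC libraries 2, 4 and 6. Every treated library lay above every control. At 2 h the ratio was 0.629 and 0.563 in the CTRL libraries and 0.360, 0.574 and 0.455 in the ODC libraries, with overlap between the groups. These ratios were not tested, since 3 libraries against 3, or 2 against 3, cannot give an exact permutation p under 0.10.

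The sequence before each ligand gene's start is shown because TGFB2 had the log2 fold change furthest from 0 at 24 h and TGFB1 is the other ligand among the 9 genes. The difference between their effects was not tested. The windows cover the 250 bases upstream of the RefSeq start (GRCh38.p14), chr19:41353923-41354172 on the minus strand for TGFB1 and chr1:218345086-218345335 on the plus strand for TGFB2, written 5′ to 3′ with matches to the SMAD box in capitals.
TGFB1: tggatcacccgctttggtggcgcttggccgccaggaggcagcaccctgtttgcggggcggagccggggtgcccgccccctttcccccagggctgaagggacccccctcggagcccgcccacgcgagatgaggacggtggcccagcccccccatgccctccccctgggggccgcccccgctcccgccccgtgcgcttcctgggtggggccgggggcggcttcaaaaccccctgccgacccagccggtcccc
TGFB2: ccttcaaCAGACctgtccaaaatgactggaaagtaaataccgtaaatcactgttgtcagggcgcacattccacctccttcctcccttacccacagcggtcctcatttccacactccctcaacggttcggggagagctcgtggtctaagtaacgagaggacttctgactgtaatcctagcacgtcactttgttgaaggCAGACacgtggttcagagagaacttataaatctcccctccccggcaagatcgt
The SMAD box, the short element that SMAD3 and SMAD4 bind, was searched as CAGAC on both strands, and 38% of the 35116 promoters in the table hold it. TGFB2 held it at 243 and 53 bases before the start, and TGFB1 did not hold it. Neither window held the palindromic SMAD element GTCTAGAC (0.182% of promoters), the AP-1 site TGANTCA (6.57%) or the core TGACNNNGC of the antioxidant response element (10.9%). Of the other genes, 8 of 9 having an entry in the table with SKI as the exception, TGFBR1, SKIL and PMEPA1 held the SMAD box in at least 1 of their listed promoters, and TGFBR2, LTBP2 and TGFBI did not. TGFBR1, PMEPA1 and TGFBR2 had more than 1 listed promoter, some of them without the box. A match in any of a gene's promoters cannot be set beside the 38%, which counts single promoters.

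TGFBR1 (chr9:99104038-99154192, plus strand) encodes the type I receptor kinase that phosphorylates SMAD2 and SMAD3. Its level at 24 h was 13.1, 16.2 and 15.6 CPM in CTRL libraries 1, 3 and 5, and 16.3, 16.3 and 23.5 CPM in ODC libraries 2, 4 and 6. The treated libraries lay above the controls, but libraries 2 and 4 only by a margin of under 1 CPM, and the group mean was set by library 6. Between the groups the log2 fold change was 0.34 (SE 0.18, 95% interval -0.07 to 0.74, edgeR adjusted p = 0.498), and 0.15 without ODC library 6. At 2 h the level was 23.5 and 26.6 CPM in CTRL and 23.6, 23.0 and 28.8 CPM in ODC libraries. The groups overlapped at that time, with a log2 fold change of 0.003 (95% interval -0.32 to 0.32, edgeR adjusted p = 1), or -0.077 without CTRL library 1.

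TGFBR2 encodes the type II receptor that binds the ligand first. The gene lies at chr3:30606601-30694142 on the plus strand, and the 250 bases before its start at chr3:30606351-30606600 are shown because it was the receptor that was lower at 24 h. None of the 4 motifs was found in this window, which is therefore all in lower case.
TGFBR2: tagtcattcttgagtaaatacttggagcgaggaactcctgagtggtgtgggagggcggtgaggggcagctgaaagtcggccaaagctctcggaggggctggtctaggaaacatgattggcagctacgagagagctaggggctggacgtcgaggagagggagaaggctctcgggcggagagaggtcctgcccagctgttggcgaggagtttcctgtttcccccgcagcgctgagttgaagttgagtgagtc
At 24 h TGFBR2 stood at 175, 133.5 and 159 CPM in CTRL libraries 1, 3 and 5, and at 105, 93.8 and 123 CPM in ODC libraries 2, 4 and 6. All 3 treated libraries lay below the lowest control. The log2 fold change was -0.52 (SE 0.14, 95% interval -0.84 to -0.21, unadjusted p = 0.0050, edgeR adjusted p = 0.180). It passed the threshold in 3 of 16 alternatives, with an adjusted p of 0.024 with adjacent library numbers as pairs, 0.035 in DESeq2 and 0.038 in the likelihood ratio test, and leaving out 1 library gave values from -0.62 to -0.44.

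At 2 h TGFBR2 stood at 310.1 and 212 CPM in CTRL libraries 1 and 2, and at 225, 204.5 and 273 CPM in ODC libraries 3, 4 and 5. The 3 treated libraries lay between or below the controls, and CTRL library 1, the one with fibroblast transcripts, was the highest. The log2 fold change was -0.16 (95% interval -0.57 to 0.26, edgeR adjusted p = 1), and 0.15 without that library. Subtracting the effect at 2 h from that at 24 h gave -0.38 (95% interval -0.92 to 0.16, edgeR adjusted p = 0.956). Both receptors had lower group means at 24 h than at 2 h in control as well as treated cells, 14.98 against 25.0 CPM for TGFBR1 and 156 against 261 CPM for TGFBR2 in the controls, a contrast in which time and month cannot be told apart.

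The log2 fold changes of the 2 receptor genes had opposite signs at 24 h. TGFBR2 counts exceeded TGFBR1 counts 13.3-, 8.26- and 10.1-fold in CTRL libraries 1, 3 and 5, and 6.45-, 5.75- and 5.24-fold in ODC libraries 2, 4 and 6. Every treated library had a smaller excess than any control. In the 2 h libraries the ratio was 13.2 and 7.96 in the CTRL and 9.52, 8.91 and 9.49 in the ODC libraries, where the groups overlapped. These are ratios of counts, not of transcripts per length.

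**Figure D2:**
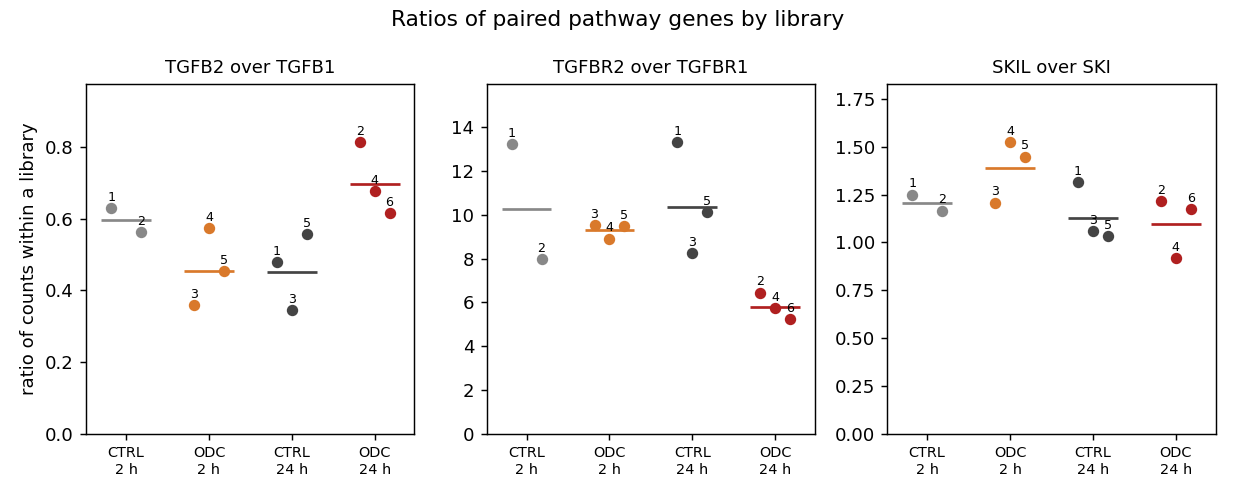
Ratio of counts within each library for the 2 ligands, the 2 receptors and the 2 repressors, on linear axes from 0; points are libraries with their number and bars are geometric means of a group. At 24 h the treated libraries are above all controls for TGFB2 over TGFB1 and below all controls for TGFBR2 over TGFBR1, and for SKIL over SKI the groups overlap.

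SKI and SKIL are paralogous corepressors that bind the SMAD complex, and SKIL is also induced by it. SKI (chr1:2227388-2310213, plus strand) stood at 51.3, 54.0 and 57.7 CPM in CTRL libraries 1, 3 and 5 and at 49.2, 55.1 and 68.5 CPM in ODC libraries 2, 4 and 6 at 24 h. SKIL (chr3:170357342-170396835, plus strand) stood at 67.5, 57.1 and 59.7 CPM in the same controls and at 59.9, 50.6 and 80.4 CPM in the treated libraries. For both genes the treated libraries spread around the controls, with library 6 the highest of the 6. For SKI the log2 fold change was 0.10 (SE 0.13, 95% interval -0.20 to 0.40, edgeR adjusted p = 0.825). That of SKIL was 0.06 (SE 0.16, 95% interval -0.31 to 0.44, edgeR adjusted p = 0.918), and both turned negative without ODC library 6, at -0.035 and -0.13.

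At 2 h SKIL stood at 73.0 and 77.2 CPM in the CTRL libraries, and at 63.8, 106 and 102 CPM in ODC libraries 3, 4 and 5. ODC library 3 was the lowest of the 5 libraries and the other two were the highest. For SKI, too, library 3 was the lowest and libraries 4 and 5 were the highest, at 58.4 and 66.2 CPM in CTRL and 52.8, 69.3 and 70.2 CPM in ODC libraries. At 2 h the log2 fold change was 0.27 for SKIL (SE 0.20, 95% interval -0.19 to 0.73, edgeR adjusted p = 1) and 0.04 for SKI (SE 0.14, 95% interval -0.28 to 0.36, edgeR adjusted p = 1). Without CTRL library 1 these values were 0.23 and -0.039, and without ODC library 3 the value for SKIL was 0.46. The ratio of SKIL to SKI counts was between 0.918 and 1.53 in all 11 libraries, with group means between 1.10 and 1.39.

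PMEPA1 (chr20:57648392-57711536, minus strand) encodes a membrane protein that is induced by TGF-β and feeds back on it by keeping SMADs from the receptor. At 24 h it stood at 78.2, 71.8 and 78.6 CPM in CTRL libraries 1, 3 and 5, and at 88.0, 106.5 and 97.4 CPM in ODC libraries 2, 4 and 6. The controls lay close together and all treated libraries were above them. Expressed as a log2 fold change this was 0.37 (SE 0.10, 95% interval 0.13 to 0.61, unadjusted p = 0.0075, edgeR adjusted p = 0.213). It missed the threshold in all 16 alternatives, with values from 0.29 to 0.43 and an adjusted p from 0.068 to 0.619.

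PMEPA1 had the largest log2 fold change of the 9 genes at 2 h. It stood at 69.0 and 84.9 CPM in the CTRL libraries and at 79.9, 131 and 141.5 CPM in ODC libraries 3, 4 and 5. Libraries 4 and 5 were far above both controls and library 3 lay between them. Between group means this gave a log2 fold change of 0.61 (SE 0.23, 95% interval 0.08 to 1.14, unadjusted p = 0.028, edgeR adjusted p = 1). It was 0.48 without CTRL library 1, 0.45 without ODC library 5 and 0.83 without ODC library 3. The effect at 24 h minus that at 2 h was -0.26 (95% interval -0.84 to 0.33, edgeR adjusted p = 0.998). Exons of PMEPA1 overlap those of the antisense transcript NKILA, which had at most 127 counts in a library.

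LTBP2 (chr14:74498183-74612378, minus strand) encodes a matrix protein of the latent TGF-β binding protein family that sits on fibrillin microfibrils. At 24 h it stood at 92.8, 64.0 and 71.0 CPM in CTRL libraries 1, 3 and 5, and at 47.5, 34.3 and 64.8 CPM in ODC libraries 2, 4 and 6. ODC library 6 lay just above CTRL library 3, and the other treated libraries lay below all controls. The log2 fold change was -0.62 (SE 0.23, 95% interval -1.15 to -0.09, unadjusted p = 0.026, edgeR adjusted p = 0.318), and between -0.87 and -0.43 with 1 library left out. At 2 h LTBP2 stood at 97.1 and 78.7 CPM in CTRL and 65.1, 82.4 and 88.6 CPM in ODC libraries. The groups overlapped at 2 h, with a log2 fold change of -0.16 (95% interval -0.51 to 0.19, edgeR adjusted p = 1), or 0.0079 without CTRL library 1. The effect at 24 h minus that at 2 h was -0.48 (95% interval -1.18 to 0.23, edgeR adjusted p = 0.962).

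TGFBI (chr5:136028988-136063818, plus strand) encodes a secreted, integrin-binding matrix protein named for its induction by TGF-β. At 24 h it stood at 575, 565 and 481 CPM in CTRL libraries 1, 3 and 5, and at 496.5, 613 and 599 CPM in ODC libraries 2, 4 and 6. The groups overlapped, and the log2 fold change was 0.09 (SE 0.12, 95% interval -0.18 to 0.36, edgeR adjusted p = 0.820). At the earlier time the level was 1191 and 735 CPM in CTRL libraries 1 and 2, and 1193, 865 and 1277 CPM in ODC libraries 3, 4 and 5. The controls differed from each other more than the group means did, so the log2 fold change of 0.21 (95% interval -0.32 to 0.73, edgeR adjusted p = 1) was 0.60 without CTRL library 1 and -0.093 without CTRL library 2.

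**Figure D3:**
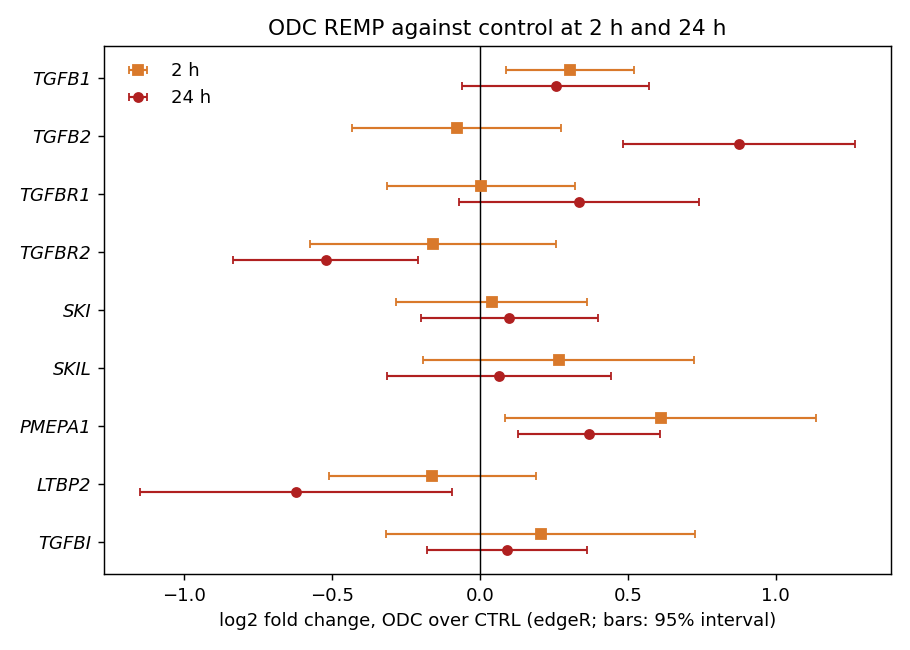
Log2 fold change of ODC over CTRL for the 9 genes at 2 h (squares) and 24 h (circles), with 95% intervals from edgeR. At 24 h the intervals of TGFB2 and PMEPA1 lie above 0 and those of TGFBR2 and LTBP2 below 0, and at 2 h those of TGFB1 and PMEPA1 lie above 0, before any adjustment for the number of genes tested.

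Levels between genes can be compared only per length, here as CPM per kb of merged exons. In the controls at 24 h the order was TGFBI (70.0 ± 6.67, SD, n = 3), TGFB1 (64.0 ± 9.31), TGFBR2 (22.7 ± 3.05), TGFB2 (15.7 ± 3.36), PMEPA1 (13.3 ± 0.66), LTBP2 (8.36 ± 1.65), SKI (8.12 ± 0.48), SKIL (7.57 ± 0.67) and TGFBR1 (1.88 ± 0.20). TGFBI and TGFB1 lay within their spread, as did TGFB2 and PMEPA1, and LTBP2, SKI and SKIL could not be ordered. In the treated cells at 24 h TGFB1 (75.5 ± 8.72) and TGFBI (73.8 ± 8.26) again led within their spread. TGFB2 came next at 28.5 ± 3.72 CPM per kb, ahead of PMEPA1 at 17.0 ± 1.61 and TGFBR2 at 15.7 ± 2.17, so that TGFBR2 and TGFB2 stood in the opposite order to the controls. TGFBR1 was the lowest of the 9 genes in all 4 groups. At 24 h the length chosen mattered for TGFBI and for the order of PMEPA1 and TGFBR2. In the controls at 2 h it changed the order of TGFB1 and TGFBR2, of TGFB2 and PMEPA1, and of LTBP2, SKI and SKIL. Per kb of the canonical transcript, a choice added after the data had been seen, TGFBI stood at 199 in controls and 210.1 in treated cells at 24 h. TGFB1 stood lower, at 75.1 and 88.7. In the treated cells at 24 h TGFBR2, at 23.7 ± 3.28, was then ahead of PMEPA1, at 19.6 ± 1.87.

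Across the 11 libraries, after the mean of each time point was subtracted, the log2 CPM of the 9 genes gave the following correlations, which describe libraries that share time points, sequencing depth and treatment. Pearson's r was 0.878 between TGFBR2 and LTBP2, 0.758 between SKI and SKIL and 0.705 between TGFBR1 and SKI. It was -0.744 between TGFB1 and LTBP2, -0.614 between TGFB2 and LTBP2 and -0.599 between TGFB2 and TGFBR2. The genes whose pattern was most like that of TGFB2 were C15orf48 (r = 0.970) and ADAMTS9 (0.944), and those most like TGFBR2 were BCL10 (0.954) and INPP5F (0.951). For TGFB1 they were LMF2 (0.967) and SPPL2B (0.962), for TGFBR1 CDC42BPA (0.970) and ZNF114 (0.959), and for LTBP2 LINC01322 (0.966) and CCDC50 (0.960). For SKI they were ITPRIPL2 (0.959) and LINC00667 (0.950), and for PMEPA1 AP1B1 (0.937) and ZNF197 (0.931). SKIL, with AMIGO2 (0.879) and GZF1 (0.867), and TGFBI, with LRP10 (0.902) and SNCG (0.898), had the least close matches.

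The other genes of the pathway were read from 6 lists with 91 genes, of which 70 had enough counts to be tested at 24 h and 73 at 2 h. These lists, too, were chosen with earlier results of these data known, so their shares beside all genes are descriptions. None passed an adjusted p of 0.05 in edgeR's quasi-likelihood test at either time. DESeq2 called 3 at 24 h (ACTA2, CDKN1A and COL4A1), where it called 386 of all 12689 genes, and 0 at 2 h. At an unadjusted p under 0.05, 11 were higher and 2 lower at 24 h, 13 of 70 where 12.2% of all genes passed. At 2 h 2 were higher and 2 lower, 4 of 73 where 2.34% of all genes passed. The median log2 fold change of these genes was 0.11 at 24 h and 0.02 at 2 h, beside 0.00089 and -0.0060 for all genes tested. The libraries of the groups did not overlap for 12 of the 70 genes at 24 h (17.9% of all genes) and for 6 of the 73 at 2 h (15.2% of all genes).

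**Figure D4:**
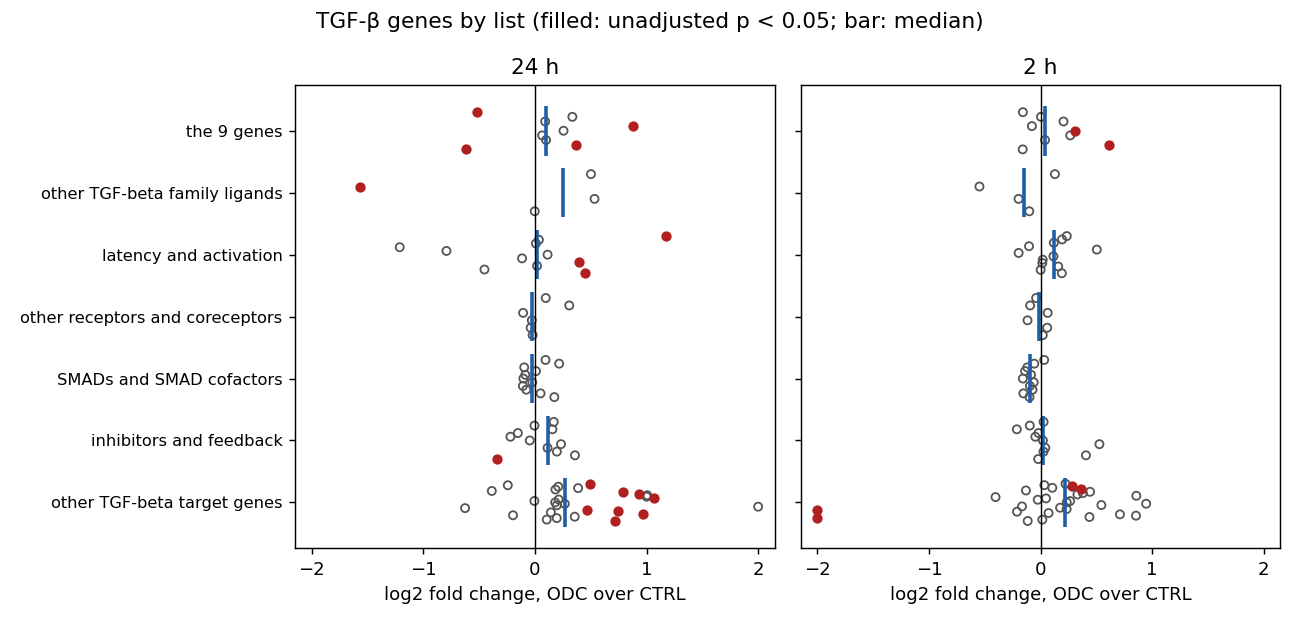
Log2 fold change of ODC over CTRL at 24 h (left) and 2 h (right) for the 9 genes and the 6 lists of other pathway genes; each point is a gene, filled where the unadjusted p was under 0.05, and the bar is the median of the list. The other target genes lie mostly to the right of 0 at 24 h (22 of 27) and at 2 h (21 of 29). The SMADs lie within 0.22 of 0 at 24 h. IL11 at 24 h (2.78, named here outside the rule for named genes) and COL1A2 and BGN at 2 h are drawn at the edge of the axis.

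The list of other TGF-β target genes was the longest. Of 27 tested at 24 h, 22 had a positive and 5 a negative log2 fold change, with a median of 0.27, where 50.15% of all genes had a positive value. The lean was similar at 2 h, with 21 of 29 tested positive and 8 negative. The median was then 0.22, where 48.21% of all genes had a positive value. At 24 h an unadjusted p under 0.05 was found for 8 of the 27, all of them higher, beside 12.2% of all genes. CDKN1A, the cell cycle inhibitor p21, which other stress pathways also induce, had the lowest adjusted p. It stood at 88.3, 90.7 and 108 CPM in CTRL libraries 1, 3 and 5, and at 206, 130 and 221 CPM in ODC libraries 2, 4 and 6, with no overlap. Its log2 fold change was 0.97 (SE 0.19, edgeR adjusted p = 0.107), and it passed the threshold in DESeq2, in the likelihood ratio test, in the joint and paired fits, without a filter on low counts and without ODC library 4. ACTA2, smooth muscle actin, stood at 10.8, 10.7 and 8.47 CPM in CTRL and 19.0, 14.5 and 15.2 CPM in ODC libraries. The log2 fold change of ACTA2 was 0.71 (SE 0.17, edgeR adjusted p = 0.148), and that of COL4A1, a basement membrane collagen, was 0.74 (SE 0.22, edgeR adjusted p = 0.242).

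Standard early targets of the pathway had log2 fold changes with intervals across 0 at 24 h: -0.20 for CCN2, 0.20 for the AP-1 subunit JUNB and 0.27 for KLF10. At 2 h the log2 fold change was 0.71 for CCN2 (95% interval -0.16 to 1.59), 0.95 for JUNB (-0.91 to 2.80) and 0.23 for KLF10 (-0.53 to 1.00). ODC library 3 again lay below libraries 4 and 5 for all 3 of these genes, at 49.9 against 131 and 62.3 CPM for CCN2 and at 41.5 against 94.6 and 91.6 CPM for KLF10. SPHK1, a sphingosine kinase, had the smallest unadjusted p among the targets that were higher at 2 h, with 171 and 202 CPM in CTRL and 273, 231 and 215 CPM in ODC libraries (log2 fold change 0.36, unadjusted p = 0.0192, edgeR adjusted p = 1). COL1A2 and the proteoglycan BGN, at -6.62 and -2.56, were the 2 targets that were lower at 2 h with an unadjusted p under 0.05. Both were high in CTRL library 1 alone: COL1A2 was at most 0.354 CPM in every other library at 2 h, and BGN stood at 3.23 CPM in CTRL library 1, 0.140 CPM in CTRL library 2 and 0.283, 0.225 and 0.340 CPM in ODC libraries 3, 4 and 5.

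Among the 11 latency and activation genes tested at 24 h, 7 had a positive and 4 a negative log2 fold change, where 50.15% of all genes had a positive value. Their median was 0.02. An unadjusted p under 0.05 was found for 3 of the 11, all higher, beside 12.2% of all genes. THBS1, thrombospondin-1, which can release latent TGF-β, stood at 2707, 2677 and 6782 CPM in CTRL libraries 1, 3 and 5 and at 8797, 12060 and 6268 CPM in ODC libraries 2, 4 and 6. ODC library 6 lay below CTRL library 5, so the groups overlapped despite a log2 fold change of 1.18 (SE 0.40, edgeR adjusted p = 0.279). ITGAV, the αv integrin subunit that binds the latent complex, was 0.40 higher on the log2 scale (SE 0.12, edgeR adjusted p = 0.246), and the protease BMP1 0.44 higher (SE 0.17, edgeR adjusted p = 0.326). LTBP1, the main carrier of latent TGF-β, was at most 1.56 CPM at 24 h, with a log2 fold change of -1.21 (95% interval -2.45 to 0.02, edgeR adjusted p = 0.418).

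Of the 11 SMADs and SMAD cofactors tested at 24 h, 0 had an unadjusted p under 0.05, beside 12.2% of all genes. The log2 fold changes lay between -0.11 and 0.22. At 24 h the log2 fold change was -0.02 for SMAD2 (95% interval -0.23 to 0.19), -0.10 for SMAD3 (-0.36 to 0.16) and -0.09 for SMAD4 (-0.32 to 0.15). The 6 other receptors and coreceptors tested likewise gave 0 genes at that threshold, with TGFBR3, the coreceptor for TGFB2, at 0.31 (95% interval -0.51 to 1.13) and between 2.78 and 9.27 CPM in all libraries. Of the 4 other ligands tested, INHBE, an inhibin subunit, had a log2 fold change of -1.57 at levels of at most 2.54 CPM (edgeR adjusted p = 0.243), INHBA was at 0.53 (adjusted p = 0.493) and TGFB3 at 0.50 (adjusted p = 0.571), with TGFB3 at most 2.61 CPM.

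Among 11 inhibitors and feedback genes tested at 24 h, 1 had an unadjusted p under 0.05, FKBP1A, beside 12.2% of all genes. FKBP1A binds the type I receptor and holds it inactive. It stood at 182, 169 and 160 CPM in CTRL libraries 1, 3 and 5, and at 135, 126 and 139 CPM in ODC libraries 2, 4 and 6. The treated libraries lay below the controls, with a log2 fold change of -0.34 (SE 0.09, 95% interval -0.55 to -0.13, edgeR adjusted p = 0.188). SMAD7, the inhibitory SMAD induced by the pathway, stood at 42.4, 33.7 and 35.5 CPM in CTRL and 45.0, 38.4 and 46.4 CPM in ODC libraries at 24 h, a log2 fold change of 0.23 (edgeR adjusted p = 0.520). At 2 h SMAD7 was at 34.3 and 46.2 CPM in CTRL and at 36.5, 61.2 and 76.3 CPM in ODC libraries, with library 3 again the lowest of the treated ones and a log2 fold change of 0.53 (95% interval -0.12 to 1.17, edgeR adjusted p = 1). SMURF2 and TGIF1 were at -0.22 and 0.16 at 24 h, and BAMBI, with at most 9 counts in a library, was not tested.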

How the data were processed

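RNA of 11 Caki-1-SR libraries was prepared with a stranded mRNA kit. The authors aligned the reads to hg38 and counted them per gene, and the submitters' processing notes name STAR 2.7.0f, HTSeq 0.9.1 and edgeR 3.26.8. The values the authors deposited are raw counts, in 1 table per time point, without normalization. Counts were fitted here with edgeR 4.0.16 in R 4.3.3, by the quasi-likelihood F test that the study's methods name (two-sided, TMM scaling, filterByExpr with a minimum count of 10), separately at 24 h and at 2 h, with Benjamini-Hochberg adjustment over all genes tested. The difference between the effects at both times came from a joint fit of all libraries. SE and 95% intervals were taken from the F statistic. CPM were TMM-scaled over the 11 libraries. DESeq2 1.42.0, other scalings, filters and tests, and fits without each library were the alternatives. The function was tested on simulated counts. Replicate libraries differed by more than sampling noise (chi-square per gene of 18.7 or more), and where nothing says they came from separate cultures, p-values measure only the spread between these samples. Positions and lengths are from GENCODE 44 and promoters from RefSeq. The 9 genes and the pathway lists were chosen with earlier results of these data known. Named genes were the 9, 14 core pathway genes (1 of which is not reported here), the 3 of smallest unadjusted p per list and time, and the 2 of highest correlation per gene.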

Additional observations from a re-analysis of the deposited data

How the results depend on the processing

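Of the 9 genes, the number called at 24 h went from 0 to 1 without a filter on low counts and in the joint fit (TGFB2), and to 2 in DESeq2, in the likelihood ratio test and with adjacent library numbers as pairs (TGFB2 and TGFBR2). Over all genes these settings called 92, 186, 386, 401 and 686 genes at 24 h, against 24. The other pathway genes called at 24 h went from 0 to 1 (no filter, joint fit), 3 (DESeq2), 2 (likelihood ratio) and 13 (pairs), and ranged from 0 to 1 with 1 library left out. At 2 h 0 of the 9 genes were called in all 14 alternatives, while other pathway genes called ranged from 0 to 4 with 1 library left out, the 4 (BGN, COL1A2, DCN and TIMP3) without CTRL library 2. That fit leaves CTRL library 1 alone in its group, which is then assumed to vary like the treated libraries. The fit without CTRL library 1 leaves CTRL library 2 alone in the same way. Over all genes, 2 h gave 1 call in DESeq2, 5 in the likelihood ratio test and 42 without CTRL library 2.

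Log2 fold changes that missed the threshold and turned sign did so with 1 library left out, where they ranged from -0.13 to 0.20 (SKIL) and -0.035 to 0.20 (SKI) at 24 h. At 2 h they ranged from -0.21 to 0.067 (TGFB2), -0.11 to 0.10 (TGFBR1), -0.40 to 0.15 (TGFBR2), -0.039 to 0.16 (SKI), -0.30 to 0.0079 (LTBP2) and -0.093 to 0.60 (TGFBI). For the difference between the times they ranged from -0.17 to 0.035 (TGFB1), -0.10 to 0.15 (SKI) and -0.52 to 0.17 (TGFBI). With scaling by library size alone TGFBR1 at 2 h was -8.485e-05. The cause was not tested in any of these cases. The other results of the 9 genes kept their sign in all alternatives. Correlations of deviations between adjacent library numbers at 24 h were 0.17, 0.527 and 0.385, and the labels do not state what such libraries share, so the paired fit is a description.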
